A study of Oryza sativa with 4 samples.

Results

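The 8 rice loci described here code for proteins with a Tify domain, the family that includes the jasmonate repressors known as JAZ proteins. They were taken from a given list of loci that the deposited table describes as Tify domain or ZIM motif proteins, and they are 8 of the 10455 loci in that table. The list does not use the measured values, but it was made with earlier results of these data known. It leaves out 4 further loci with the same descriptions, which are given beside it. The descriptions name the domain only and do not separate JAZ proteins from other Tify proteins, so the loci are called Tify loci here. The reference gene table for assembly ASM3414082v1 lists 18 rice genes with a TIFY synonym, 13 of which also carry a JAZ synonym, but it matched 0 of the 8 loci by number, so no TIFY or JAZ number is given to any of them.

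Shoots of wild-type rice grown for 2 weeks were dipped, with the pots upside down, for 10 min into a water bath held at 42 °C or 22 °C. Each sample held 10 shoots, and 2 libraries were made at 42 °C and 2 at 22 °C. Ribosome profiling sequences the pieces of mRNA that ribosomes protect from nuclease, and the series was made to compare translational efficiency, the footprints of a transcript relative to its RNA, between these temperatures. For each transcript the table holds a single score per temperature, under a header that names the temperature alone. These scores are taken as translational efficiencies, from the stated purpose of the series. There is no value per library, so no difference below has a replicate spread, a test or a p-value, the depth is unknown, and each difference is described by its size. A score does not show whether footprints, RNA or both differed, and it is not a level of RNA or protein. For that reason it does not check the tissue: 13 transcripts described as light-harvesting or chlorophyll a/b-binding were listed, and so was one similar to RCc3, a root protein of rice.

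As background, JAZ proteins hold the jasmonate response off. Work in Arabidopsis showed that they bind MYC transcription factors and, through the adaptor NINJA, bring in the corepressor TOPLESS. The hormone, jasmonate joined to isoleucine by the enzyme JAR1, lets the F-box receptor COI1 bind JAZ proteins and mark them for destruction. MYC factors also switch on JAZ genes, so that new repressor is made while the response runs.

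Most of the Tify loci had higher scores at 42 °C than at 22 °C, by less than 2-fold. Of the 8 loci, 7 were higher at 42 °C and 1 was lower. A ratio of at least 2-fold was reached by 1 locus in each direction, OS03T0180900 higher and OS07T0615200 lower, and the other 6 lay within 2-fold. Among the 9280 loci of the table with a score above 0 at both temperatures, 16.1% reached 2-fold in the higher direction and 21.6% in the lower one, so the count of 1 in 8 each way is near the background. The headers do not say whether the scores are on a linear or a log scale; read as log2(1 + ratio), they put 4 members at or past 2-fold higher, with 1 still past 2-fold lower, where 17.9% of all loci were called higher and 22.6% lower on that reading. At a smaller size, 6 of 8 members were at least 1.5-fold higher at 42 °C, where 27.8% of all loci were. The median log2 ratio of 42 °C over 22 °C was 0.81 over the 8 members and 0.03 over all 9280 loci.

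Tify loci had high scores, and ratios depended on level. By the mean of both temperatures 7 of the 8 fell into the top 25% of loci, which began at a score of 0.224. Among these the median log2 ratio was 0.28, with 66.4% of 2611 loci above 0, against 51.1% of all loci. Of those loci 29.5% were at least 1.5-fold higher at 42 °C, 11.3% reached 2-fold in that direction, and 7.01% were at least 2-fold lower. Taken relative to the median of those loci, the members' median log2 ratio was 0.53, and 6 of 8 members stayed above 0. By the definition of a median, 1305 of the 2611 loci did so too. The 6 include OS03T0180900, which lies below the top 25%.

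**Figure D1:**
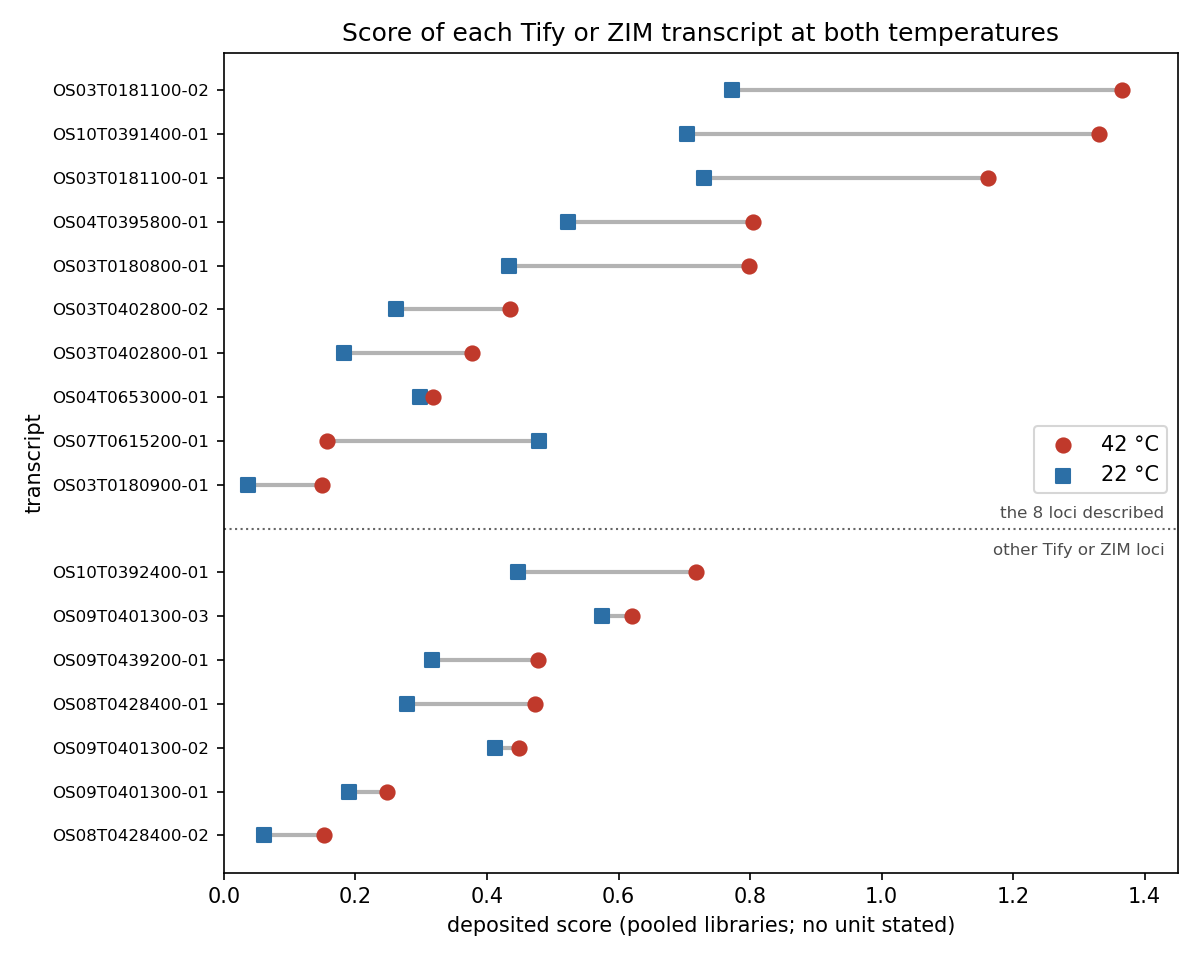
Deposited score (x axis, no unit stated) of each transcript described as Tify or ZIM (rows), with circles for 42 °C and squares for 22 °C. Each point is 1 value without error, and how the libraries of a temperature were combined is not stated. In 9 of the 10 transcripts of the 8 loci, drawn above the dotted line, the circle lies to the right of the square, and OS07T0615200-01 is the exception.

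The highest scores in the family belonged to OS10T0391400 and OS03T0181100. OS10T0391400, on chromosome 10, had a score of 1.33 at 42 °C and 0.705 at 22 °C. This is a 1.89-fold ratio (log2 ratio 0.92), at percentile 82.1 of all loci and percentile 86.4 of the top 25% by mean score. The difference of 0.626 was larger than in 99.5% of all loci. At a given ratio a difference is larger where scores are higher, and the mean score of this locus was at percentile 98.2. OS03T0181100, on chromosome 3, has 2 listed transcripts and a locus average of 1.26 at 42 °C and 0.752 at 22 °C (log2 ratio 0.75). Transcript 01 had 1.16 at 42 °C and 0.731 at 22 °C, and transcript 02 had 1.37 at 42 °C and 0.772 at 22 °C. Both transcripts were thus higher at 42 °C, with log2 ratios of 0.67 and 0.82. Transcripts of a locus can share reads, so they are not separate evidence.

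OS03T0181100 belongs to a run of close locus numbers on chromosome 3 with OS03T0180800 and OS03T0180900. OS03T0180800, described as similar to a ZIM motif family protein, had 0.798 at 42 °C and 0.434 at 22 °C (1.84-fold, log2 ratio 0.88). OS03T0180900 had the lowest score of the 8 at each temperature, 0.149 at 42 °C and 0.0372 at 22 °C, and the largest ratio, 4.00-fold (log2 ratio 2.00). All members of this run were higher at 42 °C, but at 22 °C their scores ranged from 0.0372 to 0.752. OS03T0180900 is the only member below the top 25% of loci by mean score, at the 53.5th percentile. Large ratios were more common there: 18.0% of the 6669 loci below the top 25% were at least 2-fold higher at 42 °C. With 0.1 added to every score its log2 ratio was 0.86, within 2-fold.

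The remaining higher members lay between these. OS04T0395800, on chromosome 4, had 0.804 at 42 °C and 0.523 at 22 °C (1.54-fold, log2 ratio 0.62). OS03T0402800 averaged 0.406 at 42 °C and 0.222 at 22 °C (1.83-fold, log2 ratio 0.87). Its transcript 01 had 0.377 at 42 °C and 0.182 at 22 °C, a 2.07-fold ratio, and transcript 02 had 0.436 at 42 °C and 0.261 at 22 °C, a 1.67-fold ratio. The average of this locus thus hides a transcript just past 2-fold. OS04T0653000, also on chromosome 4, had nearly equal scores, 0.318 at 42 °C and 0.298 at 22 °C; its log2 ratio was 0.09, and -0.18 relative to the median of the top 25% of loci.

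OS07T0615200, on chromosome 7, went the other way. Its single transcript had 0.156 at 42 °C and 0.480 at 22 °C, a score 3.08-fold lower at 42 °C (log2 ratio -1.62). Its mean score, 0.318, was close to those of OS03T0402800 (0.314) and OS04T0653000 (0.308). Of these, OS03T0402800 was higher at 42 °C (log2 ratio 0.87) and OS04T0653000 had nearly equal scores (log2 ratio 0.09). Within the top 25% of loci the ratio of OS07T0615200 lay at the 2.11th percentile. It remained more than 2-fold lower under each alternative tried for it, which are given with the processing alternatives.

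The order of the members differed between the temperatures. At 42 °C the scores ran OS10T0391400, OS03T0181100, OS04T0395800, OS03T0180800, OS03T0402800, OS04T0653000, OS07T0615200 and OS03T0180900, from high to low. OS10T0391400 was number 1 at 42 °C and number 2 at 22 °C, and OS03T0181100 was number 2 at 42 °C and number 1 at 22 °C. OS07T0615200 was number 7 of 8 at 42 °C and number 4 at 22 °C. OS03T0180800 was number 4 at 42 °C and number 5 at 22 °C, and OS03T0402800 was number 5 at 42 °C and number 7 at 22 °C, whereas OS04T0395800, OS04T0653000 and OS03T0180900 kept their places. The highest score was 8.95 times the lowest at 42 °C and 20.2 times at 22 °C. Without replicates no pair of neighbours in either order can be said to differ.

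**Figure D2:**
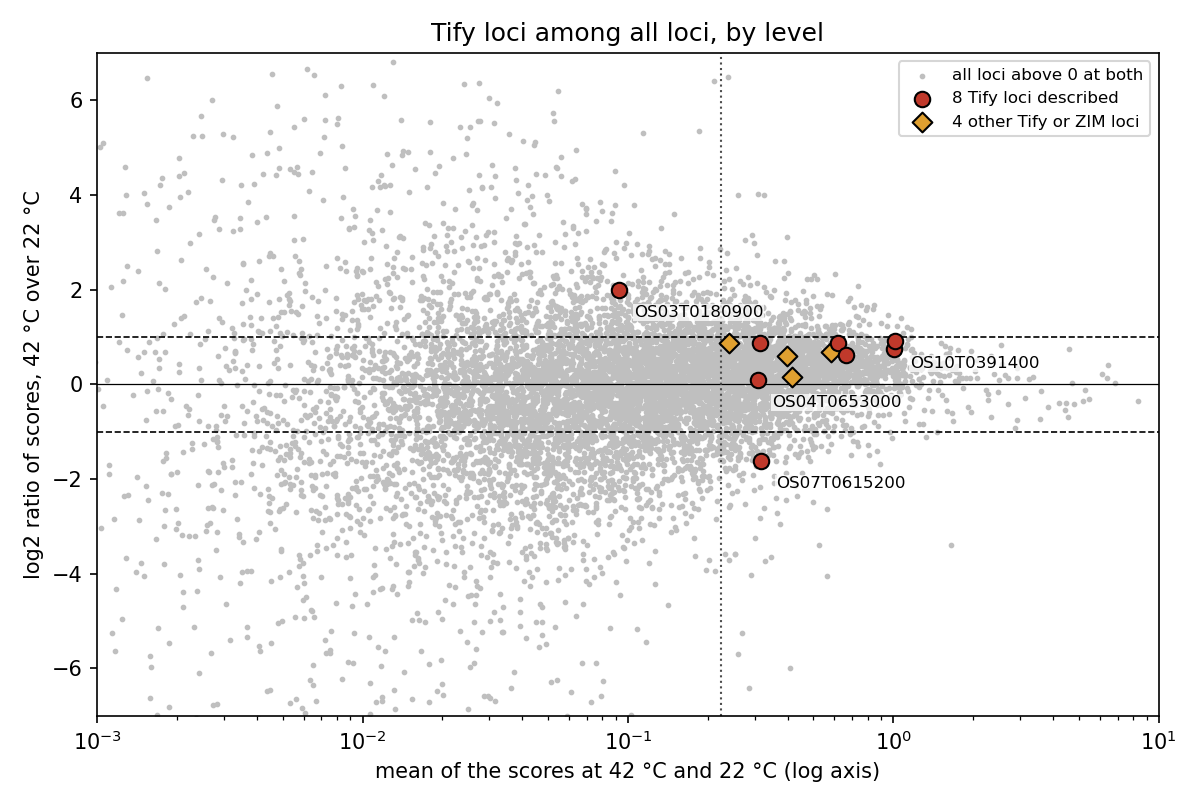
Log2 ratio of the scores at 42 °C over 22 °C (y axis) against the mean of both scores (x axis, log scale) for loci above 0 at both temperatures in grey, the 8 Tify loci as circles and the 4 other Tify or ZIM loci as diamonds; 146 grey loci lie outside the axes. Dashed lines mark 2-fold and the dotted line the start of the top 25% at 0.224; OS07T0615200 is the only circle below 0 and OS03T0180900 the only one left of the dotted line.

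The 4 loci with the same descriptions that are not on the list were all higher at 42 °C, within 2-fold. OS10T0392400 had 0.719 at 42 °C and 0.448 at 22 °C, and OS09T0439200 had 0.477 at 42 °C and 0.317 at 22 °C. OS08T0428400 averaged 0.313 at 42 °C and 0.170 at 22 °C over 2 transcripts, and its transcript 02 alone, with 0.153 at 42 °C and 0.0611 at 22 °C, was past 2-fold. OS09T0401300 averaged 0.439 at 42 °C and 0.393 at 22 °C over 3 transcripts; its log2 ratio was 0.16, and -0.12 relative to the median of the top 25%. Their log2 ratios thus ran from 0.16 to 0.88, inside the range of the members. Over all 12 loci described as Tify or ZIM, 11 had higher and 1 had lower scores at 42 °C, with a median log2 ratio of 0.72. Of the 12, 11 lay in the top 25% of loci by mean score. There 66.4% of loci were higher at 42 °C with a median log2 ratio of 0.28, against 51.1% and 0.03 over all loci. Relative to the median of the top 25%, 9 of the 12 and 3 of the 4 stayed above 0, and the median of the 12 was 0.44.

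Other loci listed for jasmonate went both ways. A list of other jasmonate loci, found by locus number or by description, held 17 loci. It includes OS12T0247700, similar to a jasmonate-induced protein, with 0.214 at 42 °C and 0.111 at 22 °C (log2 ratio 0.94). Of the 17, 11 had higher scores at 42 °C and 6 had lower ones, where 51.1% of all loci were higher. Relative to the median of the top 25% of loci, to which 6 of the 17 belong, 7 of the 17 stayed above 0. The ratio reached 2-fold in 4 of the higher and 5 of the lower loci, and the median log2 ratio was 0.03. These shares, like the median, are near those of all loci, of which 16.1% were called higher and 21.6% lower with a median of 0.03. All 4 of those higher are described as lipoxygenases, of which the list holds 8. Of these 4 higher loci, 3 lay in the top 25% of loci by mean score, where 11.3% of loci were at least 2-fold higher. Below the top 25% that share was 18.0%. Of the 5 lower ones, 4 belong to hormone perception, conjugation or the Ninja family. All 5 lay below the top 25%, where 27.3% of loci were at least 2-fold lower. Whether the calls differ by role was not tested.

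The receptor loci had low scores. OS01T0853400, described as coronatine-insensitive 1, had 0.0267 at 42 °C and 0.0772 at 22 °C (log2 ratio -1.53). OS05T0449500, similar to it, had 0.0534 at 42 °C and 0.174 at 22 °C (log2 ratio -1.71). The third receptor locus, OS03T0265500, had nearly equal scores of 0.0475 at 42 °C and 0.0464 at 22 °C. Its log2 ratio was 0.03, as was the median over all loci. Relative to the median of the top 25%, to which this locus does not belong, it was -0.24. So 2 of 3 receptor loci were more than 2-fold lower at 42 °C, while all 3 lay below the top 25% of loci, where 27.3% were at least 2-fold lower.

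The Ninja-family locus OS03T0214200 had 0.0337 at 42 °C and 0.160 at 22 °C, a score 4.75-fold lower at 42 °C. OS05T0586200, a GH3-family locus annotated to jasmonate signalling and listed here under the JAR1 role of joining jasmonate to an amino acid, had 0.00237 at 42 °C and 0.0239 at 22 °C. Its mean score lay at the 20.0th percentile of loci, so its 10.1-fold lower score rests on very small values. With 0.1 added to every score none of the 17 loci was at least 2-fold lower, the receptor, Ninja-family and GH3 loci included. The MYC-type factor OS10T0575000, described as similar to MYC7E, had 0.434 at 42 °C and 0.239 at 22 °C. Its log2 ratio of 0.86 was close to the members' median and, like theirs, under 2-fold. No transcript was described as TOPLESS.

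Upstream of the hormone, lipoxygenases can start jasmonate synthesis by oxidising fatty acids. Loci were listed here by the word lipoxygenase in their description, so whether each serves jasmonate synthesis is not known. Of 8 such loci, the largest ratio was that of OS10T0361000, with 0.717 at 42 °C and 0.218 at 22 °C, followed by OS12T0559934, with 1.26 at 42 °C and 0.420 at 22 °C. OS03T0700700 had 0.169 at 42 °C and 0.0619 at 22 °C, and OS12T0559200 averaged 0.570 at 42 °C and 0.254 at 22 °C. OS02T0194700 was lower, with 0.0283 at 42 °C and 0.0871 at 22 °C. The other 3 lay within 2-fold: OS05T0304600 had a log2 ratio of -0.75, OS02T0753300 one of 0.30, and OS04T0447100 one of 0.03, which is -0.25 relative to the median of the top 25%. The later enzymes of synthesis had nearly equal scores: the allene oxide cyclase OS03T0438100 had 0.217 at 42 °C and 0.213 at 22 °C, and the 12-oxophytodienoate reductase OS08T0459600 had 0.429 at 42 °C and 0.397 at 22 °C. Both log2 ratios, 0.02 and 0.11, turn negative relative to the median of the top 25%, at -0.25 and -0.16. OS08T0459600 is in the top 25%, whereas OS03T0438100 and OS04T0447100 lie below it. The median log2 ratio over all loci was 0.03. The 2 loci fixed for allene oxide synthases were not analysed here.

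**Figure D3:**
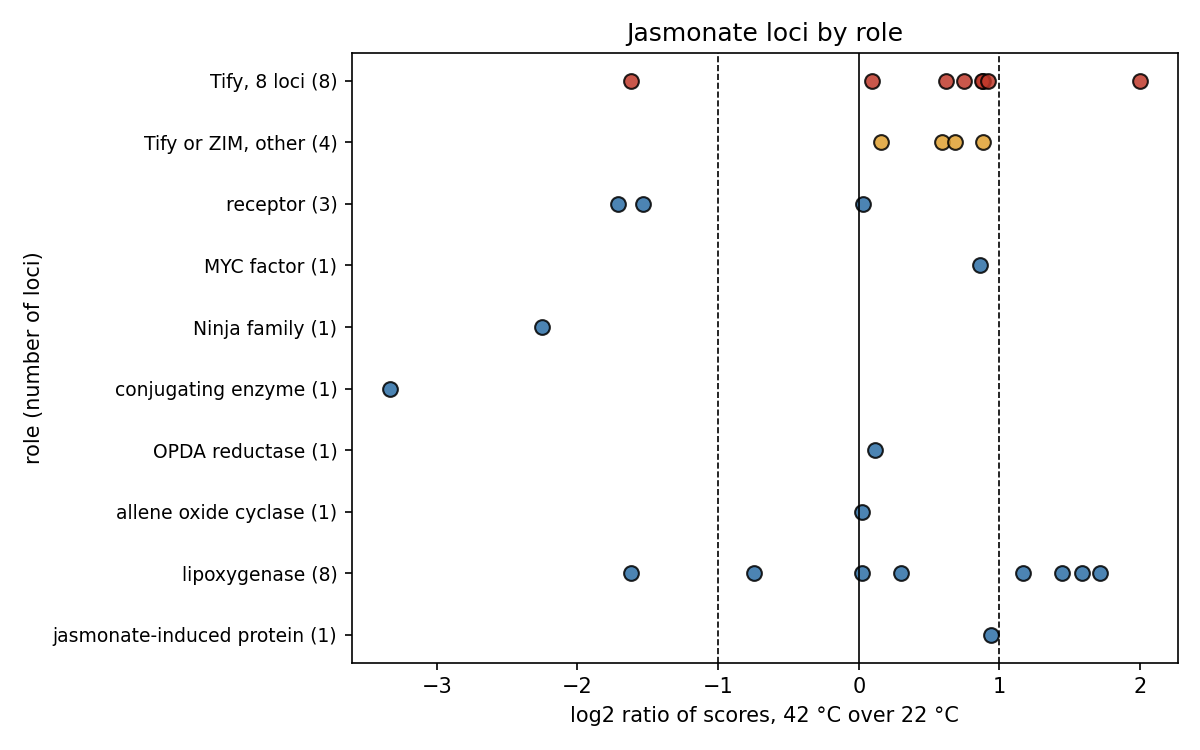
Log2 ratio of the scores at 42 °C over 22 °C (x axis) for each locus by role (rows, with the number of loci), with dashed lines at 2-fold. The Tify loci lie right of 0 except OS07T0615200 at -1.62, while 2 of the 3 receptor loci, the Ninja-family locus and the conjugating enzyme lie left of -1.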

How the data were processed

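The submitters' processing notes name cutadapt and Bowtie2. Their versions, the genome build, the annotation and how RNA was measured were all not given in the sources used here. A table of 14122 transcripts with a score at each temperature and their difference was deposited by the authors; per the file headers each score column is named by its temperature and nothing else. The deposited difference equalled the score at 42 °C minus that at 22 °C within 1e-05 in all 14122 transcripts.

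Scores of the transcripts of each locus (the ID before the hyphen) were averaged, giving 10455 loci, and the log2 ratio of 42 °C over 22 °C was computed for the 9280 above 0 at both temperatures. A locus was called at a ratio of at least 2-fold. No test was possible, since the 2 libraries of a temperature are not given apart. Near-identical copies may divide reads; similarity among the loci was not examined, and no sequence was used here. The members, word lists and thresholds were chosen with earlier results of these data known. All 8 members are named, with every pathway locus past 2-fold and those of receptor, MYC, Ninja and JAR1 roles. Counting of calls was tested on simulated data, made by putting exact folds without noise into the scores at 22 °C. That checks the counting alone and not how reliable a call is. Software was Python 3.11.15, numpy 2.4.6, pandas 2.3.3 and matplotlib 3.10.9.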

Additional observations from a re-analysis of the deposited data

How the results depend on the processing

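No paired analysis was possible because the table holds 1 score per temperature, so neither a replicate block nor leaving out a replicate was run. A single member at least 2-fold lower, OS07T0615200, was counted under all alternatives. The count of members at least 2-fold higher, 1 as reported, was 2 with each transcript on its own or the lowest-numbered transcript, 4 with scores read as log2(1 + ratio), 6 at a 1.5-fold threshold, and 0 among loci in the top 25% by mean score or with 0.1 added to every score. The members' median log2 ratio ran from 0.53 to 1.00 over 18 alternatives, reaching 1.00 with scores read as log2(1 + ratio), and from 0.75 to 0.87 when 1 member was left out. The member ratio that changed sign was that of OS04T0653000, at -0.18 when centred on the top 25%. Of 67 single-locus values under alternatives, 60 kept their direction and their side of 2-fold. For the 17 other jasmonate loci, the median turned to -0.24 with that centring and reached 1.01 among its loci in the top 25%. The number at least 2-fold higher, 4 as reported, was 5 with each transcript on its own and 6 at a 1.5-fold threshold. It was 2 with 0.1 added, 2 at a 3-fold threshold and 0 without lipoxygenases. The number at least 2-fold lower, 5 as reported, was 7 with each transcript on its own. It was 6 with the lowest-numbered transcript, when centred on the top 25%, or at a 1.5-fold threshold. At a mean score of at least the median of loci it was 2, and it was 0 in the top 25% and 0 with 0.1 added. Fewer loci enter at a minimum score; otherwise the cause was not tested. Adding the 4 other Tify or ZIM loci and leaving out lipoxygenases were chosen after seeing the data. So were the 1.5-fold and 3-fold thresholds for other jasmonate loci. The depth behind each score is unknown and limits low scores most.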

Other observations

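The 3 described loci nearest to the point of the members' median log2 scores (back-transformed, 0.569 at 42 °C and 0.456 at 22 °C), by Euclidean distance over the log2 scores at the 2 temperatures, were OS02T0525600 (similar to a protein named for a clone), OS11T0143300 (an A-type response regulator of cytokinin signalling) and OS08T0560900 (similar to photosystem I reaction center subunit II). OS02T0525600 had 0.569 at 42 °C and 0.449 at 22 °C. OS11T0143300 had 0.568 at 42 °C and 0.470 at 22 °C. OS08T0560900 had 0.556 at 42 °C and 0.464 at 22 °C. Their log2 ratios, 0.26 to 0.34, follow from their closeness to this point, whose 2 scores are medians taken separately at each temperature. They therefore cannot be set against the members' median log2 ratio of 0.81. The median point is not the pair of scores of any member.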
